A study of Mus musculus with 8 samples.

Results

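The genes described here are the 3 angiopoietins of the mouse (*Angpt1*, *Angpt2*, *Angpt4*), 4 angiopoietin-like genes (*Angptl1*, *Angptl2*, *Angptl4*, *Angptl6*) and the Tie receptors *Tek* and *Tie1*. These 9 genes were taken by symbol from the 54532 gene identifiers counted by bulk RNA-seq in primary pericyte cultures from WT mouse brain. Pericytes are the mural cells that wrap capillaries. There were 4 cultures treated with TGF-β1 (5 μg/mL, labelled replicates 5 to 8) and 4 treated with vehicle (labelled 1 to 4), all for 48 h. The study describes independent isolates, expanded by passaging, each of which may have received both treatments, so that the 8 cultures may be 4 isolates split between the groups, and the labels give no age for the animals behind them. The comparison asked which of these genes differed in level between the TGF-β1 and the vehicle cultures.

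Angiopoietins are secreted ligands of Tie2, the receptor tyrosine kinase encoded by *Tek*, which is found mostly on endothelial cells. Angiopoietin 1 is the classical agonist that mural cells make and that keeps vessels quiescent, whereas angiopoietin 2 acts as a weak or context-dependent ligand and can oppose it. Angiopoietin-like proteins have a related architecture, a coiled-coil and a fibrinogen-like domain in most members, but they do not signal through Tie2 in the classical way, and several of them inhibit lipases or bind integrins.

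The counts summed to between 45255235 and 47651397 per culture, and the level of a gene is given as CPM, its count divided by the TMM-scaled library size and given per 1000000 counts. Over all 22544 genes tested, 41.3% differed between the groups at an adjusted p under 0.05 (edgeR quasi-likelihood test), 20.9% higher and 20.3% lower with TGF-β1, and every count of called genes below is to be read against these shares. Of 14 brain pericyte markers 11 were tested, with 5 higher and 3 lower, and their summed level was 580 to 599 CPM with vehicle and 759 to 788 CPM with TGF-β1. That rise came mainly from *Pdgfrb*, the receptor that recruits mural cells (202 ± 5.43 to 291 ± 2.58 CPM, SD, n = 4 each), and *Cspg4* (82.9 to 169 CPM). *Rgs5* was 4.04-fold and *Atp13a5* 2.41-fold lower. *Kcnj8*, a potassium channel subunit of brain pericytes, never exceeded 2 counts. Further markers of this list were low, with 0 to 9 counts per culture of *Abcc9*, 2 to 6 of *Vtn*, 5 to 25 of *Higd1b* and 25 to 36 of *Des*. For 12 fibroblast markers the sum was 1952 to 2052 CPM with vehicle and 2762 to 2909 CPM with TGF-β1, through *Col1a1* alone (1587 to 2525 CPM), while 5 of the 9 tested were lower, *Ptgds* by 9.45-fold and *Vcam1* by 2.99-fold among them, and their median log2 fold change was -0.31. The sum of 12 macrophage and microglia markers, 110 to 115 and 109 to 111 CPM, was mostly *Tmem119* (102 CPM with vehicle), with *C1qa*, *C1qb* and *Tyrobp* at 0 to 2 counts and *Csf1r* 1.66-fold higher, the only call among 9 tested. The sum of 8 astrocyte markers, 246 to 259 and 227 to 238 CPM, was mostly *Gja1* (195 CPM with vehicle). Of 7 tested *Slc1a2* was lower (log2 fold change -1.24) and *Aldh1l1*, *Slc1a3* and *Fabp7* were higher, the last at 6 to 33 counts per culture. *Aqp4* had 0 to 6 counts per culture, and *Gfap*, with 31 to 54, was not called. Exons of other genes overlap 15.1% of the exon bases of *Csf1r* and 13.4% of those of *Aldh1l1*. Fewer cells of a type and less RNA per cell cannot be told apart in such bulk samples, and the part of other cells in the results below was not tested.

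The angiopoietin genes split in 3 ways under TGF-β1. *Angpt2* was 3.85-fold lower, *Angpt4* rose by 2.20-fold, and the groups overlapped in *Angpt1*. Among the angiopoietin-like genes, *Angptl2* rose by 1.96-fold and *Angptl4* by 1.10-fold, and of the receptors *Tek* fell and *Tie1* was at or near 0. In all, 8 of the 9 genes passed the filter on low counts and were tested, and 3 were higher and 2 lower at an adjusted p under 0.05 (edgeR quasi-likelihood test, Benjamini-Hochberg adjustment over 22544 genes, SE being the standard error on the log2 scale). These 5 of 8 stand against 41.3% of all genes called by the same test (20.9% higher, 20.3% lower). The median log2 fold change of the 8 was 0.05, against -0.01 over all genes tested.

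**Figure D1:**
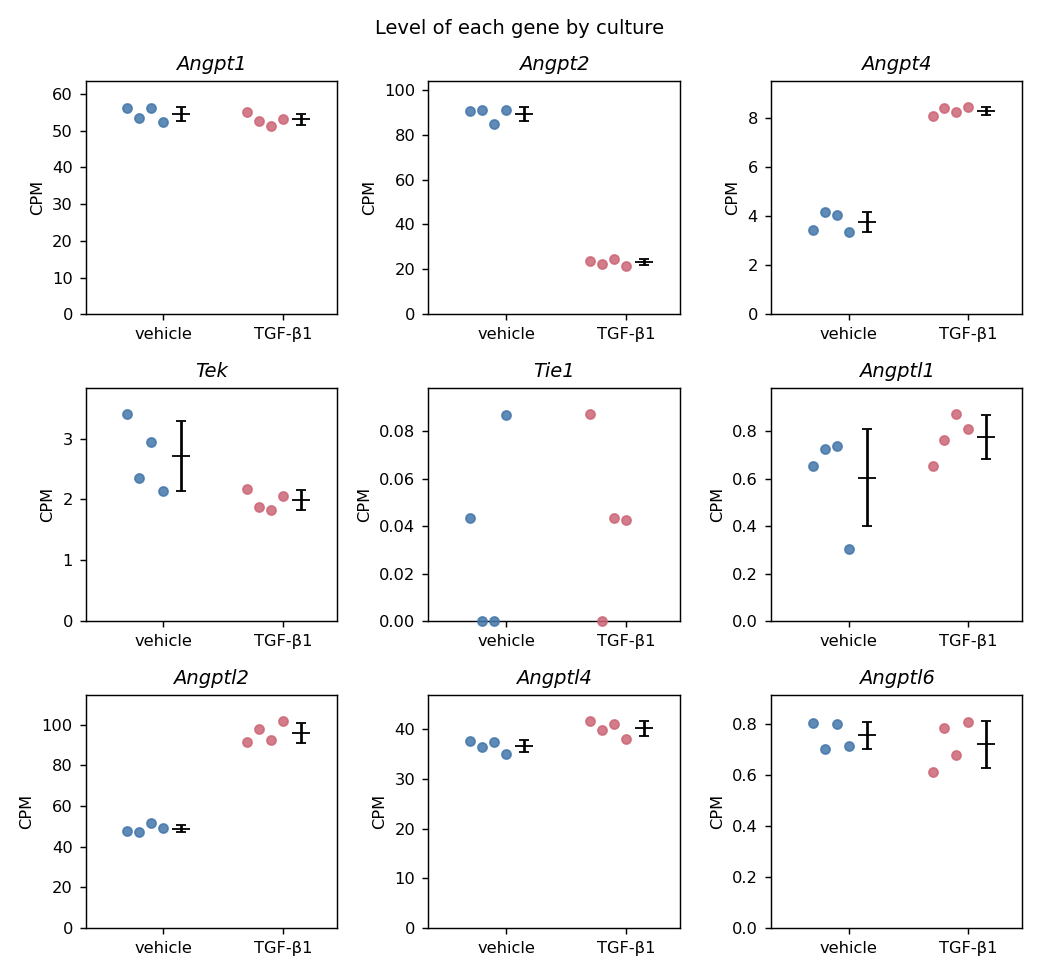
Level in CPM (linear axes from 0) of the 9 genes in each of the 8 cultures. Dots are cultures and black bars the mean ± SD of 4 cultures, left out for *Tie1*, which had at most 4 counts. *Angpt2* is lower in every TGF-β1 culture (21.5 to 24.8 CPM) than in any vehicle culture (84.7 to 91.0 CPM), and *Angpt4* and *Angptl2* are higher in every one.

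*Angpt1* encodes the Tie2 agonist. It lies on chromosome 15 of GRCm38 (42424723 to 42676977, ENSMUSG00000022309, minus strand). In the vehicle cultures 1 to 4 it was at 56.1, 53.5, 56.1 and 52.3 CPM, and in the TGF-β1 cultures 5 to 8 at 55.0, 52.7, 51.2 and 53.1 CPM. The groups overlapped over most of their range. The log2 fold change was -0.04 (95% interval -0.11 to 0.03, adjusted p = 0.381, edgeR quasi-likelihood test). With 10104 counts summed over the vehicle and 9780 over the TGF-β1 cultures, this interval limits a change of *Angpt1* to between 0.926-fold and 1.02-fold. The exons of the antisense gene *Gm17473* overlap 14.2% of its exon bases, and that gene, at 3.35 ± 0.654 CPM (SD, n = 4) with vehicle, was low beside it.

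*Angpt2* encodes the context-dependent ligand and had the largest change of the 9 genes. It lies on chromosome 8 (18690263 to 18741562, ENSMUSG00000031465, minus strand). Its level was 90.5, 90.8, 84.7 and 91.0 CPM in the vehicle cultures 1 to 4 and 23.9, 22.6, 24.8 and 21.5 CPM in the TGF-β1 cultures 5 to 8. The means were 89.2 ± 3.03 CPM (SD, n = 4) and 23.2 ± 1.45 CPM (SD, n = 4), a level 3.85-fold lower with TGF-β1 (95% interval 3.65 to 4.07). No TGF-β1 culture came near the vehicle range, and groups that did not overlap, as in 4 of the 8 tested genes here, were found in 37.9% of all genes tested (19.1% higher, 18.8% lower). On the log2 scale the change was -1.95 (SE 0.039, adjusted p = 2.55e-35, edgeR quasi-likelihood test), and it lay between -1.98 and -1.90 when any 1 culture was omitted. The whole of *Angpt2* lies within an intron of *Mcph1*, which is read from the opposite strand, and for *Mcph1* itself the change was 0.04 on that scale (SE 0.041, adjusted p = 0.515, same edgeR test).

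*Angpt4* encodes the remaining Tie2 ligand, and was per kilobase of exon the least abundant angiopoietin. It lies on chromosome 2 (151911210 to 151945337, ENSMUSG00000027460, plus strand). The vehicle cultures 1 to 4 held 3.43, 4.19, 4.06 and 3.38 CPM and the TGF-β1 cultures 5 to 8 held 8.10, 8.41, 8.27 and 8.45 CPM. All 4 TGF-β1 cultures were above all vehicle cultures, and their spread was narrow (8.31 ± 0.159 CPM, SD, n = 4). This was a difference of 1.14 in log2 level (SE 0.093, adjusted p = 3.48e-14, edgeR quasi-likelihood test), with a range of 1.09 to 1.20 when any 1 culture was omitted. These levels rest on 156 to 193 counts per vehicle culture and 371 to 397 per TGF-β1 culture.

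Because *Angpt1* and *Angpt2* act on the same receptor, their counts were also compared within each culture, where no scaling between libraries enters. The vehicle cultures 1 to 4 held 1.61, 1.70, 1.51 and 1.74 counts of *Angpt2* for each count of *Angpt1*. In the TGF-β1 cultures 5 to 8 the ratio was 0.434, 0.428, 0.485 and 0.404. *Angpt2* thus had more counts than *Angpt1* in each vehicle culture and fewer in each TGF-β1 culture. The mean log2 ratio was 0.71 with vehicle and -1.19 with TGF-β1, a difference of -1.91 (exact permutation test, two-sided, p = 0.0286, n = 4 per group, the smallest p that 4 cultures against 4 can give). With log2 fold changes of -0.04 in *Angpt1* and -1.95 in *Angpt2*, this difference mostly restates that of *Angpt2* and is no separate support for it. Per kilobase of exon, which corrects for the length of the transcripts, the ratio was 2.13 to 2.45 with vehicle and 0.570 to 0.684 with TGF-β1, so the order of these ligands changed on that scale too.

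The 3 angiopoietins were also put together as shares of their summed count per kilobase of exon. *Angpt2* made up 64.7% to 68.2% of the sum in the vehicle cultures and 29.6% to 33.4% in the TGF-β1 cultures. *Angpt1* went from 27.8% to 30.4% with vehicle to between 48.9% and 52.0% with TGF-β1, although its own level had overlapped between the groups. The share of *Angpt4* was 3.99% to 4.90% with vehicle and 16.9% to 18.4% with TGF-β1. Shares of a sum move together by construction, so these values describe the mixture and add no test.

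**Figure D2:**
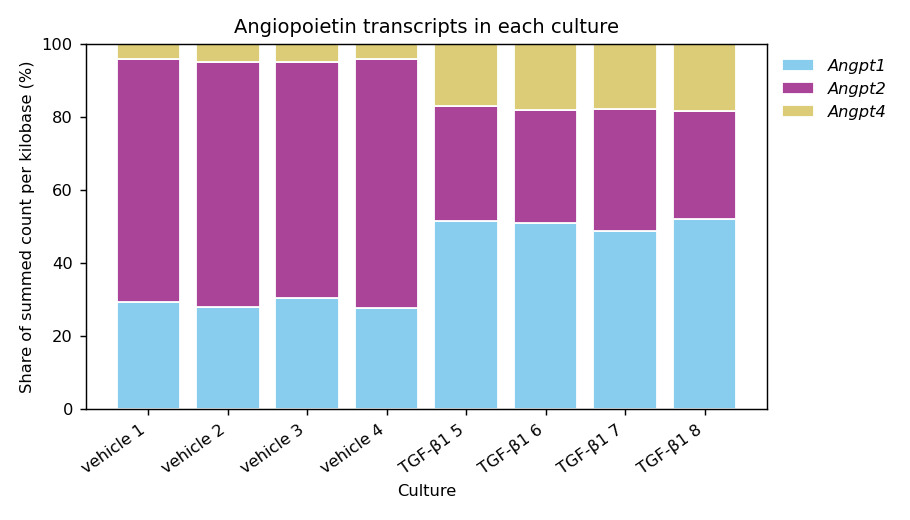
Share (%) of *Angpt1*, *Angpt2* and *Angpt4* in their summed count per kilobase of exon, in 1 stacked bar per culture. *Angpt2* is the largest share in each vehicle culture (64.7% to 68.2%) and *Angpt1* in each TGF-β1 culture (48.9% to 52.0%).

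*Tek*, which encodes the receptor Tie2, was low in these cultures. It lies on chromosome 4 (94739289 to 94874976, ENSMUSG00000006386, plus strand). Its level was 3.41, 2.35, 2.95 and 2.14 CPM in the vehicle cultures 1 to 4 and 2.18, 1.87, 1.83 and 2.06 CPM in the TGF-β1 cultures 5 to 8. The groups overlapped, with vehicle culture 4 below TGF-β1 culture 5. Its log2 level differed by -0.45 (95% interval -0.75 to -0.15, SE 0.15, adjusted p = 0.0126, edgeR quasi-likelihood test). This call rested on 1 culture, since without vehicle replicate 1 the log2 fold change was -0.31 with an adjusted p of 0.115. An exact permutation test of the CPM values alone gave a p of 0.0571 (two-sided, n = 4 per group).

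*Tie1*, which encodes the related receptor that binds no angiopoietin with high affinity and modulates Tie2, lies on chromosome 4 (118471191 to 118490061, ENSMUSG00000033191, minus strand). It had 2, 0, 0 and 4 counts in the vehicle cultures 1 to 4 and 4, 0, 2 and 2 in the TGF-β1 cultures 5 to 8. It did not pass the filter on low counts. Since a count of 0 allows up to 3 counts, or 0.0631 to 0.0658 CPM, *Tie1* was not measurable here and no fold change is given. As these receptors mark endothelial cells, 16 other endothelial markers were examined, and 11 of them passed the filter, with 3 higher, 3 lower and 5 not called. Their summed level was 502 to 513 CPM with vehicle and 498 to 523 CPM with TGF-β1. *Cdh5*, the endothelial cadherin, made up most of this sum, at 375 ± 6.23 and 367 ± 12.9 CPM (SD, n = 4 each). *Flt1* (3689 to 4616 counts), *Kdr* (746 to 935) and *Ly6c1* (597 to 853) were also well above 0. At fewer counts per culture, *Vwf* (44 to 211 counts, 2.42-fold) and *Robo4* (4 to 29, 3.84-fold) were higher with TGF-β1. *Ramp2* (46 to 208 counts, 3.54-fold) and *Ocln* (14 to 73, 2.87-fold) were lower, and exons of other genes overlap 33.4% of the exon bases of *Ramp2*. Other markers were near 0, with 0 to 4 counts of *Sox17*, 0 to 6 of *Erg* and 0 to 10 of *Cldn5* per culture, and *Pecam1* had 36 to 75 counts. The markers named from this list, as those of the other cell types, were chosen after their values were seen. The part of endothelial cells in the level of *Tek* was not tested.

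*Angptl2* encodes a secreted protein that binds integrin α5β1 and paired immunoglobulin-like receptors and is known from inflamed tissue. It lies on chromosome 2 (33216069 to 33247717, ENSMUSG00000004105, plus strand). The vehicle cultures 1 to 4 held 47.6, 47.2, 51.4 and 49.3 CPM, and the TGF-β1 cultures 5 to 8 held 91.3, 97.8, 92.6 and 102 CPM. Every TGF-β1 culture was far above the highest vehicle culture. The means were 48.9 ± 1.91 and 95.9 ± 4.92 CPM (SD, n = 4 each), a log2 difference of 0.97 (SE 0.035, adjusted p = 1.06e-25, edgeR quasi-likelihood test). The gene lies within an intron of *Ralgps1*, on the opposite strand, which was at 6.76 CPM with vehicle and 7.52 CPM with TGF-β1 and was not called (adjusted p = 0.145, same edgeR test).

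*Angptl4* encodes an inhibitor of lipoprotein lipase that is induced by fasting, PPAR receptors and hypoxia. It lies on chromosome 17 (33773750 to 33781830, ENSMUSG00000002289, minus strand). Its level was 37.6, 36.4, 37.4 and 34.9 CPM in the vehicle cultures 1 to 4 and 41.6, 39.9, 41.1 and 38.1 CPM in the TGF-β1 cultures 5 to 8. The lowest TGF-β1 culture was just above the highest vehicle culture. The log2 difference was 0.13 (95% interval 0.05 to 0.21, SE 0.039, adjusted p = 0.00490, edgeR quasi-likelihood test), and without 1 culture at a time the adjusted p went from 0.00112 to 0.0334. The rise of *Angptl4* was thus called but small, 1.10-fold against 1.96-fold in *Angptl2*.

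*Angptl1*, whose product is known to restrain angiogenesis, and *Angptl6*, which encodes angiopoietin-related growth factor, were scarce. *Angptl1* (chromosome 1, 156838562 to 156861078, ENSMUSG00000033544, plus strand) had 30, 33, 35 and 14 counts in the vehicle cultures 1 to 4 and 30, 35, 40 and 38 in the TGF-β1 cultures 5 to 8. Its log2 fold change was 0.36 (95% interval -0.17 to 0.89, adjusted p = 0.301, edgeR quasi-likelihood test), and without vehicle replicate 4, the lowest culture, it was 0.14. *Angptl6* (chromosome 9, 20873808 to 20879727, ENSMUSG00000038742, minus strand) had 37, 32, 38 and 33 counts in the vehicle cultures and 28, 36, 31 and 38 in the TGF-β1 cultures. Its log2 fold change was -0.07 (95% interval -0.55 to 0.41, adjusted p = 0.855, same edgeR test). The groups overlapped in both genes, and changes of the size seen in *Angptl4* were not detectable at such counts. The antisense gene *A230050P20Rik*, at 17.7 CPM with vehicle and lower with TGF-β1 (log2 fold change -0.79), shares 16.8% of the exon bases of *Angptl6*, which itself was at 0.755 CPM. *Gm37802*, at 0.847 CPM with vehicle, shares 16.4% of those of *Angptl1*, at 0.604 CPM. Whether reads of these neighbours entered the counts was not tested.

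**Figure D3:**
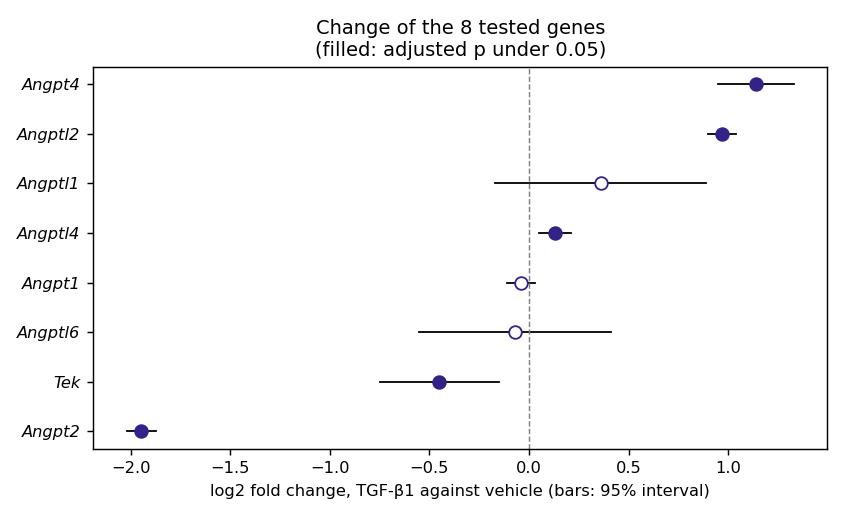
log2 fold change (TGF-β1 against vehicle, 4 cultures each) of the 8 tested genes, with 95% intervals as bars and filled dots for an adjusted p under 0.05 (edgeR quasi-likelihood test). *Angpt2* (-1.95) lies far to the left, *Angptl2* (0.97) and *Angpt4* (1.14) to the right, and the intervals of *Angpt1*, *Angptl1* and *Angptl6* span 0.

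Levels of different genes were compared only per length, as CPM per kilobase of all annotated exon bases. In the vehicle cultures *Angpt2* led at 24.2 ± 0.821 (SD, n = 4), followed by *Angpt1* at 10.5 ± 0.370, *Angptl4* at 10.3 ± 0.345 and *Angptl2* at 7.77 ± 0.304. *Angpt1* and *Angptl4* overlapped and had no order beyond their spread. *Angpt4* came next at 1.61 ± 0.180, and *Tek* (0.575), *Angptl6* (0.477), *Angptl1* (0.212) and *Tie1* (0.00661) followed, of which *Tek* and *Angptl6* overlapped. In the TGF-β1 cultures the order of the upper genes was *Angptl2* at 15.3 ± 0.782, *Angptl4* at 11.3 ± 0.437, *Angpt1* at 10.2 ± 0.301, *Angpt2* at 6.28 ± 0.393 and *Angpt4* at 3.56 ± 0.068, with no overlap between neighbours. *Angptl6* (0.455) and *Tek* (0.422) overlapped again. *Angpt2* thus moved from the highest to the fourth position, and *Angptl2* from the fourth to the highest.

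A pair of further angiopoietin-like genes, *Angptl7* and *Angptl8*, was low. *Angptl8*, which encodes a small member without the fibrinogen-like domain, had 17 to 39 counts per culture and a log2 fold change of -0.05 (95% interval -0.62 to 0.53). *Angptl7* was called, at 3.31 ± 0.457 CPM with vehicle and 2.60 ± 0.434 CPM with TGF-β1 (SD, n = 4 each), a log2 fold change of -0.35 (adjusted p = 0.0368, edgeR quasi-likelihood test). Its groups overlapped, and the call was lost in DESeq2 (adjusted p = 0.0891) and without any of vehicle replicates 1, 3 and 4 or TGF-β1 replicate 8 (adjusted p from 0.0594 to 0.200).

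A feature that the choice of genes did not use is their position. Of the 9 genes, 3 lie wholly within the body of a larger gene on the opposite strand, namely *Angpt2* in *Mcph1*, *Angptl1* in *Ralgps2* and *Angptl2* in *Ralgps1*, and the same holds for *Angptl7* in *Mtor* and *Angptl8* in *Dock6*. The libraries were made with a stranded kit, but the strand setting of the counting is not given in the sources used here. Reads from introns of these larger genes could have been counted in the small ones if strand was ignored. The hosts of *Angpt2* and *Angptl2*, *Mcph1* and *Ralgps1*, were not called, nor were *Mtor* and *Dock6*. *Mcph1* was at 34.3 CPM with vehicle and 35.2 CPM with TGF-β1, the latter above *Angpt2* (23.2 CPM). *Mtor* was at 91.2 and 88.5 CPM and *Dock6* at 40.9 and 41 CPM, far above *Angptl7* and *Angptl8*. These comparisons with hosts are in CPM, with no correction for length. If strand was ignored, a host that was not called could still add reads in both groups. *Ralgps2* was called, at 23.3 ± 1.15 CPM with vehicle and 28.1 ± 1.58 CPM with TGF-β1 (SD, n = 4 each, log2 fold change 0.28, adjusted p = 7.22e-06, edgeR quasi-likelihood test). Whether introns of any of these hosts entered the counts of the small genes was not tested.

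Promoters are shown for the genes called in the comparison that had an entry in the RefSeq promoter table of GRCm38.p6 (*Angptl2*, *Angpt4*, *Tek*), and for *Angptl1*. The table held 6 of the 9 genes, and had no entry for *Angpt1*, *Angpt2* and *Angptl4*. Each sequence is the 250 bases before the RefSeq start, 5′ to 3′ on the strand of the gene, and capitals mark a match to CAGACA, which holds the letters of the SMAD box, or the core of the hypoxia response element (ACGTG) on either strand.
*Angptl2*, chr2:33215711-33215960, plus strand: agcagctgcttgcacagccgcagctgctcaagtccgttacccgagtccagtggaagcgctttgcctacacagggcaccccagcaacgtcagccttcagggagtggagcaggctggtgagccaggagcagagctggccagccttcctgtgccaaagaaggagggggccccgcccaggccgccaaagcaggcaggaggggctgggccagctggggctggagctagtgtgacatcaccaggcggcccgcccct
*Angpt4*, chr2:151910957-151911206, plus strand: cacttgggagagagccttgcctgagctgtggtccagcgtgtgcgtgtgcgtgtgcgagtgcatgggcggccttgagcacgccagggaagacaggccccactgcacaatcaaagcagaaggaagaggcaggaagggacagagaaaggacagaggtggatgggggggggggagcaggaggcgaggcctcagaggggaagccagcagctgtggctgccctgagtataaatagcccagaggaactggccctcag
*Tek*, chr4:94739039-94739288, plus strand: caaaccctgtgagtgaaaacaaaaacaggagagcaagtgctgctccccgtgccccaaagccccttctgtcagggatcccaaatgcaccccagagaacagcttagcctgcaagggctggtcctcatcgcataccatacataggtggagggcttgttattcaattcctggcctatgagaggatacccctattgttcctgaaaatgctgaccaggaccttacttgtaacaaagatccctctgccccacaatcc
*Angptl1*, chr1:156838773-156839022, plus strand: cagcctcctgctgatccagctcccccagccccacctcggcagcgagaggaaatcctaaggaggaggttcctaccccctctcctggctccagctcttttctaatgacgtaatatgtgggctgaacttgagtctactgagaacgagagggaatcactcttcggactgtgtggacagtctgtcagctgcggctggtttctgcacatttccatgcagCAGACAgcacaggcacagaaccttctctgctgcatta
The run CAGACA was found in *Angptl1* alone of the 6 genes with an entry, 37 bases before the start. It is held by 17.1% of all 32851 windows of this length in the table. Shorter forms of the SMAD box were not searched. No window of the 6 held ACGTG, which is present in 16.6% of all windows. The windows of *Angptl2* and *Angpt4*, the genes that rose most, hold neither run of letters, which says nothing about binding there or elsewhere.

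The partners of the Tie receptors were then examined as a list of 22 genes for the Tie2 phosphatase, the Tie1 ligand, integrins that bind angiopoietins, adaptors, kinases and transcription factors. Of the 21 tested, 9 were higher, 7 lower and 5 not called (edgeR quasi-likelihood test, adjusted p under 0.05), against 41.3% of all genes called (20.9% higher, 20.3% lower), and the median log2 fold change was 0.01 against -0.01 over all genes tested. Without TGF-β1 replicate 8 only 4 were lower. *Ptprb*, which encodes the phosphatase VE-PTP that switches Tie2 off, rose from 2.27 ± 0.279 to 7.62 ± 0.883 CPM (SD, n = 4 each, log2 fold change 1.74). *Itgb3*, the integrin β3 subunit, rose from 3.59 ± 0.157 to 13.3 ± 1.65 CPM (SD, n = 4 each, log2 fold change 1.89), and *Itgb1*, integrin β1, rose from 832 ± 17.5 to 1132 ± 24.4 CPM (SD, n = 4 each, log2 fold change 0.44). The α subunits of the list, *Itgav* and *Itga5*, named after their values were seen, also rose, by 1.28-fold and 1.27-fold. Downward, *Foxo1*, a transcription factor held in check by Tie2 and Akt signalling, fell by 0.39 on the log2 scale, *Akt2* fell by 0.33 and *Svep1*, which encodes the extracellular ligand of Tie1, fell by 0.30. Other genes have exons over 13.9% of the exon bases of *Svep1* and 7.78% of those of *Foxo1*.

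For the angiopoietin-like proteins, a list of 16 genes held their receptors, the lipases they inhibit with the factors that fold or anchor these lipases, and the convertases that cut them. Of the 14 tested, 5 were higher, 2 lower and 7 not called, so that 7 of 14 were called, close to the 41.3% of all genes, with a median log2 fold change of 0.06. The lower genes numbered 1 without vehicle replicate 2 and 4 with library totals as the only scaling. *Itgb1* and *Itga5*, the subunits of the integrin bound by the *Angptl2* product, are in both lists. *Lipg*, the endothelial lipase, rose from 7.70 ± 0.587 to 11.9 ± 0.975 CPM (SD, n = 4 each, log2 fold change 0.63), and the convertase gene *Pcsk5* from 1.40 ± 0.153 to 2.65 ± 0.665 CPM (log2 fold change 0.92). *Pcsk7*, another convertase gene, fell by 0.13 on the log2 scale, and exons of other genes overlap 10.1% of its exon bases. The other fall was that of *Pirb*, a receptor of the *Angptl2* product with 27 to 63 counts per culture (log2 fold change -0.74). *Lpl*, the lipase that the *Angptl4* product inhibits, was at 2.07 ± 0.121 and 2.18 ± 0.140 CPM (SD, n = 4 each), with a log2 fold change of 0.08 (95% interval -0.21 to 0.36). The latter pair was named after its values were seen.

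*Angptl4* is a textbook target of PPAR receptors and of hypoxia-inducible factors, and other genes of these responses are given beside it. In a list of 18 PPAR receptors and targets, 16 were tested, and 3 were higher, 4 lower and 9 not called, so that 7 of 16 were called against 41.3% of all genes, with a median log2 fold change of -0.02. *Fabp4*, a fatty acid carrier, rose by a log2 fold change of 1.34, *Pdk4*, a kinase that restrains glucose oxidation, by 1.29 and *Plin2*, a lipid droplet protein, by 0.36. The receptor genes *Ppara* and *Pparg* fell by 1.01 and 0.58 on the log2 scale, and *Acadm*, an enzyme of fatty acid oxidation, fell by 0.68. In a list of 20 hypoxia-response genes, all tested, 14 were higher and 6 lower, against 20.9% and 20.3% of all genes, with a median log2 fold change of 0.33 against -0.01 over all genes tested. *Hk2*, a hexokinase, rose by a log2 fold change of 1.57, *Vegfa*, the endothelial growth factor, by 0.83 and *Bnip3*, a mitophagy receptor, by 0.71, while *Ndrg1* fell by 1.50, *Adm* (adrenomedullin) by 0.91 and *Car9* (a carbonic anhydrase) by 0.57. Exons of other genes overlap 22.3% of the exon bases of *Bnip3*, 9.29% of those of *Car9* and 8.43% of those of *Ndrg1*. Neither list moved in 1 direction. The rise of *Angptl4*, at 0.13, was smaller than each of these named changes.

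**Figure D4:**
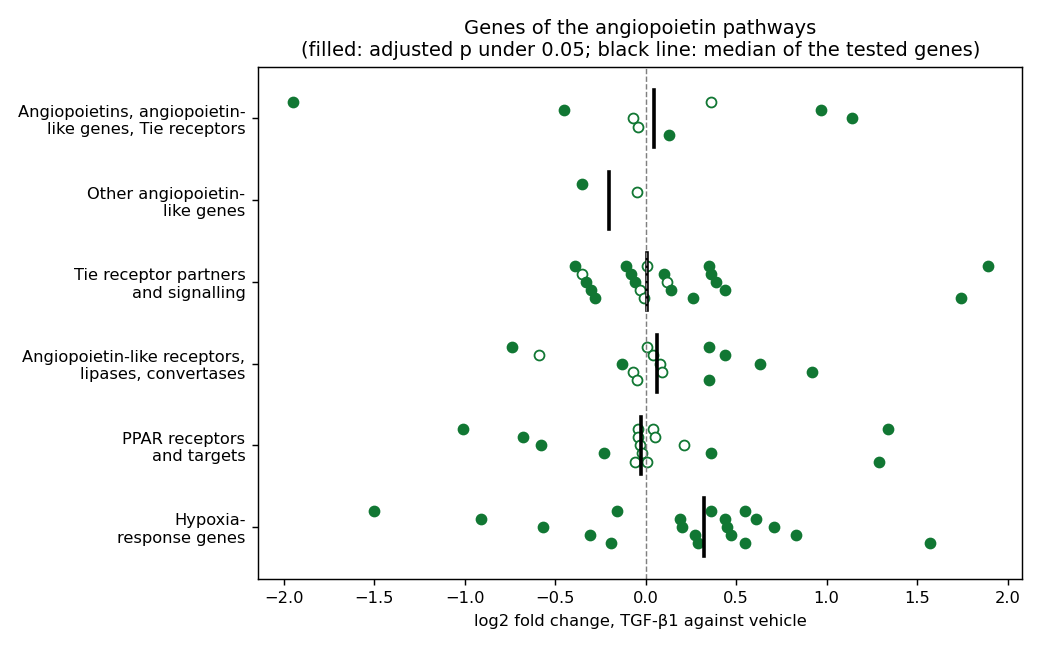
log2 fold change (TGF-β1 against vehicle) of the tested genes in 6 lists, 1 dot per gene, filled for an adjusted p under 0.05 and with the median as a black line. Each of the 4 lists of partners and target genes holds called genes on both sides of 0, and the medians of these 4 run from -0.02 (PPAR) to 0.33 (hypoxia). The median is 0.05 in the list of the 9 genes and -0.20 in that of *Angptl7* and *Angptl8*.

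Finally, the genes whose levels followed those of the 6 tested members with a mean of at least 1 CPM most closely were listed by Pearson r of log2 CPM over the 8 cultures, among 16494 genes with such a mean. The values are a description, since the 8 cultures fall into 2 groups and any gene that differs between them in the same direction scores high. The groups of *Angpt1* and *Tek* overlapped. For all 6 members the matches also followed the scatter within groups. The r within groups was 0.92 to 0.95 for *Angpt1*, 0.90 to 0.92 for *Tek* and 0.80 to 0.90 for *Angpt2*. For *Angpt4* it was 0.89 to 0.95, for *Angptl2* 0.97 to 0.99 and for *Angptl4* 0.92 to 0.93. The best of 16494 genes over 8 cultures can score high without any relation. *Angpt2* was followed by *Kctd12*, *Gpc3* and *Ehd3* (r = 0.9994, 0.9993 and 0.9992), which were all lower with TGF-β1. *Angptl2* was followed by *Col11a1*, *Ugcg* and *Flrt2* (r = 0.9995 each), and *Angpt4* by *Acsbg1*, *Mcpt8* and *1700006J14Rik* (r = 0.9974, 0.9972 and 0.9961), all higher with TGF-β1. For *Angptl4* the genes were *Tmem81*, *Tenm3* and *Rnf207* (r = 0.9769, 0.9719 and 0.9715), for *Tek* they were *Gm48192*, *Mysm1* and *Yipf1* (r = 0.9597, 0.9481 and 0.9479), and for *Angpt1* they were *Gm44093*, *Gm8428* and *Gm15402* (r = 0.9638, 0.9333 and 0.9195).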

How the data were processed

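RNA of 8 brain pericyte cultures (4 TGF-β1, 4 vehicle) was sequenced from stranded total RNA libraries. For alignment to mm10 the authors ran STAR 2.7.5c with its 2-pass option. PCR duplicates were taken out in samtools 1.15, and the deposited values are raw counts per gene made with featureCounts 2.0.3. The annotation release, the strand setting and the handling of shared reads are not given in the sources used here. Of 54532 identifiers, 54495 had a position and symbol in GENCODE M21 (GRCm38, the assembly mm10 names).

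The counts were tested with edgeR 4.0.16 in R 4.3.3 (filterByExpr, TMM, robust quasi-likelihood test, Benjamini-Hochberg adjustment over 22544 genes, threshold 0.05). Standard errors are the absolute log2 fold change over the root of the F statistic, and intervals are at 95%. The ratio of *Angpt2* to *Angpt1* was tested by exact permutation, two-sided. Checked on simulated data (22230 genes, 200 of them changed), the code called 63 of 71 genes changed by a log2 fold of 1 and 44 of 77 changed by 0.5, with 3.70% false calls. A far smaller share of genes was changed there than the 41.3% called in the real data, so these rates need not hold for the real comparison.

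The labels number the cultures 1 to 8 without repeating a number, so the groups were compared unpaired. Pairs of cultures within a group differed by 2.29 to 4.21 chi-square per degree of freedom, or 1.16 to 2.28 with counts halved, where sampling noise gives 1 (1.16 is vehicle 3 against 4). Each culture was counted as 1 replicate because the labels list it as a sample, and this comparison does not show that isolates were independent. The study describes independent isolates for both groups, which may be the same isolates, and not the animals behind each, so p-values measure the spread between these samples. Low counts were mostly even (68.5% to 70.2% of counts from 1 to 20), so both mates of a read pair may have been counted, and limits from counts cover counting error only. A count of 3 is 0.0631 to 0.0658 CPM.

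The 9 genes and the gene lists were chosen with earlier results of these data known. All 9 are named, and of each pathway list the 3 strongest rises and falls past the threshold, where groups did not overlap and the mean reached 1 CPM. The markers with the highest level or near 0 may be named too. Some related genes are not reported here. Alternatives were DESeq2 1.42.0 (the study's tool), other scaling, other filters, counts per fragment (halved and rounded up) and each culture left out.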

Additional observations from a re-analysis of the deposited data

Results flagged for a closer look

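A culture stood far from the other 3 of its group in 3 of 68 groups of 4 values examined, where chance at 1 in 20 gives 3.4. *Angpt2* was lowest among the vehicle cultures in replicate 3, at 84.7 CPM against 90.5 CPM in the nearest culture, which is still above every TGF-β1 culture. *Lipg* was lowest among the TGF-β1 cultures in replicate 5, at 10.5 CPM against 12.3 CPM. *Vegfa* was highest among the vehicle cultures in replicate 2, at 107 CPM against 102 CPM.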

How the results depend on the processing

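Under DESeq2, the other scalings, the other filters and counts per fragment, each of the 8 tested genes kept its direction and its side of the threshold. The log2 fold change of *Angpt2* stayed between -1.96 and -1.94, that of *Angptl2* between 0.96 and 0.98 and that of *Angpt4* between 1.13 and 1.15. The number of lower genes outside the 9 changed in short lists, to 0 of *Angptl7* and *Angptl8* with DESeq2, and to 4 in the list of angiopoietin-like receptors, lipases and convertases with library totals as the only scaling, and the cause was not tested. When any 1 culture was omitted, the difference in the log2 ratio of *Angpt2* to *Angpt1* was -1.96 to -1.87, where 3 cultures against 4 allow no exact p below 0.0571. The lower genes numbered 1 to 2 among the 9 (1 without vehicle replicate 1, which *Tek* needs), 0 to 1 among *Angptl7* and *Angptl8*, 4 to 7 among the Tie partners and 1 to 3 in the receptor, lipase and convertase list (1 without vehicle replicate 2). *Tek* was between -0.55 and -0.31 on the log2 scale. Genes that were not called changed sign in some of these fits, with ranges of -0.12 to 0.00 for *Angptl6* (0.00 without TGF-β1 replicate 5) and -0.31 to 0.11 for *Angptl8*. In *Tie1*, *Angptl1*, *Angptl6* and *Angptl8*, with at most 40 counts per culture, the depth limits what could be seen. No paired analysis was possible because the cultures are numbered 1 to 4 with vehicle and 5 to 8 with TGF-β1 and the groups share no number, although the same isolates may have been used in both.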
